A study of Mus musculus with 7 samples.

Results

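The 33 genes described here encode the glucose transporters, the glycolytic enzymes, the lactate and pyruvate steps that follow them, and the hypoxia-inducible factor HIF-1 with its oxygen sensors and some of its targets. They were taken from a fixed list of symbols, and all 33 were found among the 53465 gene IDs of the count table; 32 passed the filter on low counts, as did 14784 genes in all. Their RNA was counted in cells that flow cytometry had sorted from mouse liver as CD4+CD25+, the markers used to select regulatory T cells (Treg). KO_MCD denotes CD73 knockout mice kept for 4 weeks on a diet without methionine and choline (3 libraries). WT_MCD denotes wild type C57BL/6 mice on the same diet for the same time (2 libraries), and WT_NCD denotes wild type C57BL/6 mice given the normal control diet instead (2 libraries). CD73, encoded by Nt5e, is the cell surface enzyme that turns AMP into adenosine, and the deficient diet is a common way to induce fatty liver with inflammation. The labels give no age or sex, do not say which part of Nt5e was deleted or in which cells, and do not say whether the libraries of a group came from separate animals. The p-values therefore reflect how far these libraries scatter, a scatter that may be technical. Knockout mice on the control diet were not analysed here, so the genotype was compared on the deficient diet alone.

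Glycolysis breaks glucose down to pyruvate in the cytosol. Pyruvate is then either reduced to lactate, which leaves the cell through monocarboxylate transporters, or carried into mitochondria, where pyruvate dehydrogenase feeds it into the citric acid cycle. HIF-1 pairs the oxygen-regulated subunit HIF-1α with a stable partner and activates most of these genes when oxygen is low; prolyl hydroxylases mark HIF-1α for degradation when oxygen is present. In T cells, activation through the antigen receptor also raises glycolysis, and Treg are commonly described as relying on it less than effector T cells do.

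No gene of the list passed a Benjamini-Hochberg adjusted p of 0.05 in any of the 3 comparisons, and neither did any other gene tested (edgeR quasi-likelihood test, 0% of 14784 genes in each). The genes that did not pass include Nt5e, the gene targeted in the knockout. The absence of calls therefore does not show that genes did not differ. What follows gives levels and differences with their errors. In KO_MCD against WT_MCD, 26 of the 32 tested members stood lower. Relative to their error, the aldolase, enolase and pyruvate kinase genes Aldoa, Eno1 and Pkm and the transporter gene Slc2a3 stood lowest. In WT_MCD against WT_NCD the lactate exporter gene Slc16a3, Aldoa and Eno3 stood highest relative to their error. In KO_MCD against WT_NCD the members were split, with P4ha1, Ldha and Gpi1 lower and Eno3, Slc16a3 and Pfkfb3 higher.

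Levels are in CPM, read counts scaled to a common library size with TMM factors, and total counts were 19731501 to 24398738. The targeted gene Nt5e had 5.88, 14.5 and 6.43 CPM in KO_MCD, against 177 and 87.6 CPM in WT_MCD and, in WT_NCD, 243 and 241 CPM. The Treg factor Foxp3 and the T cell genes Cd3e and Cd4 were counted in all 7 libraries, with 108 to 287, 93.5 to 303 and 609.7 to 2137 CPM. Macrophage genes were counted as well. The summed level of 12 macrophage and Kupffer cell markers was 12697, 9491 and 7408 CPM in KO_MCD, 2416 and 32876 CPM in WT_MCD and, in WT_NCD, 10792 and 1179 CPM. Lyz2 made up most of this sum in every library, with 11324, 8374 and 6151 CPM in KO_MCD and 7757 CPM in WT_NCD replicate 1. Adgre1, C1qa, C1qb, C1qc, Clec4f, Timd4 and Vsig4 were higher in WT_NCD replicate 1 than in every KO_MCD library. Csf1r, Cd68, Marco and Cd5l were not. All 12 were counted in every library except Timd4, which was at 0 in KO_MCD replicates 1 and 2. The summed level of 10 T cell markers was 6996 to 8349.8 CPM in KO_MCD, 11583 and 5857 CPM in WT_MCD and, in WT_NCD, 10521 and 15624 CPM. WT_MCD replicate 2 had the highest macrophage and the lowest T cell sum, and WT_NCD replicate 2 the reverse. Marker sums of other cells also differed between groups. The sum of 4 B cell markers was 797, 689 and 264 CPM in KO_MCD, against 142 and 231 CPM in WT_MCD and, in WT_NCD, 136 and 105 CPM, so every KO_MCD library was above every wild type library. The sum of 4 dendritic cell markers was 757, 499 and 1152 CPM in KO_MCD and 422 and 869 CPM in WT_MCD, against 126 and 39.9 CPM in WT_NCD. Most of it was Siglech and Irf8. Flt3 was also higher in every deficient diet library than in WT_NCD. Xcr1 had 7.33, 2.72 and 3.24 CPM in KO_MCD, 12.9 and 16.0 CPM in WT_MCD and, in WT_NCD, 7.13 and 2.88 CPM. That of 6 NK cell markers was 101, 73.2 and 113 CPM in KO_MCD and 103 and 229 CPM in WT_MCD, against 26.5 and 13.4 CPM in WT_NCD, where Ncr1, Klre1 and Eomes were at 0. The sum of 10 hepatocyte markers was 170.1 to 238 CPM in KO_MCD, against 259 and 286 CPM in WT_MCD and, in WT_NCD, 382 and 591 CPM. Most was from Ass1, at 178, 163 and 234 CPM in KO_MCD, 253 and 236 CPM in WT_MCD and, in WT_NCD, 292 and 566 CPM. Alb had 0, 3.53 and 3.05 CPM in KO_MCD, 2.37 and 28.3 CPM in WT_MCD and, in WT_NCD, 3.79 and 1.85 CPM. In the KO_MCD libraries 7, 7 and 6 of the 10 markers were at 0. The part of these cells in the differences below was not tested. In such bulk libraries fewer cells of a type and less RNA per cell cannot be told apart, and part of any member's level may come from cells other than Treg.

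Compared per length of annotated exons, genes of the last steps of glycolysis were highest. Pkm, the gene of the pyruvate kinase found outside liver and red cells, averaged 387 CPM per kilobase over the 7 libraries (range 284 to 506). Ldha, the muscle-type subunit of lactate dehydrogenase, followed with 313 CPM per kilobase (196 to 507), and Eno1, the widely expressed enolase, with 225 (144 to 294). Per kilobase, Ldha was above Eno1 in every library, and Pkm was above Ldha in every library except WT_NCD replicate 2. Hif1a, Pgk1 and Aldoa came next and did not separate, with means of 133, 132 and 127 CPM per kilobase. At the other end Hk2, Egln3 and Pfkm averaged 2.17, 1.82 and 1.02 CPM per kilobase. Vegfa, the vascular growth factor and a standard HIF target in other cells, had counts in 3 of the 7 libraries, with 0.923, 0 and 0 CPM in KO_MCD, 0 and 0.263 CPM in WT_MCD and, in WT_NCD, 0.0506 and 0 CPM. It was the 1 member left untested; 3 counts correspond to 0.129 to 0.158 CPM per library. All members together took 0.755 ± 0.0792% of counts in KO_MCD (SD, n = 3), 0.986 ± 0.146% in WT_MCD (SD, n = 2) and 0.887 ± 0.107% in WT_NCD (SD, n = 2).

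**Figure D1:**
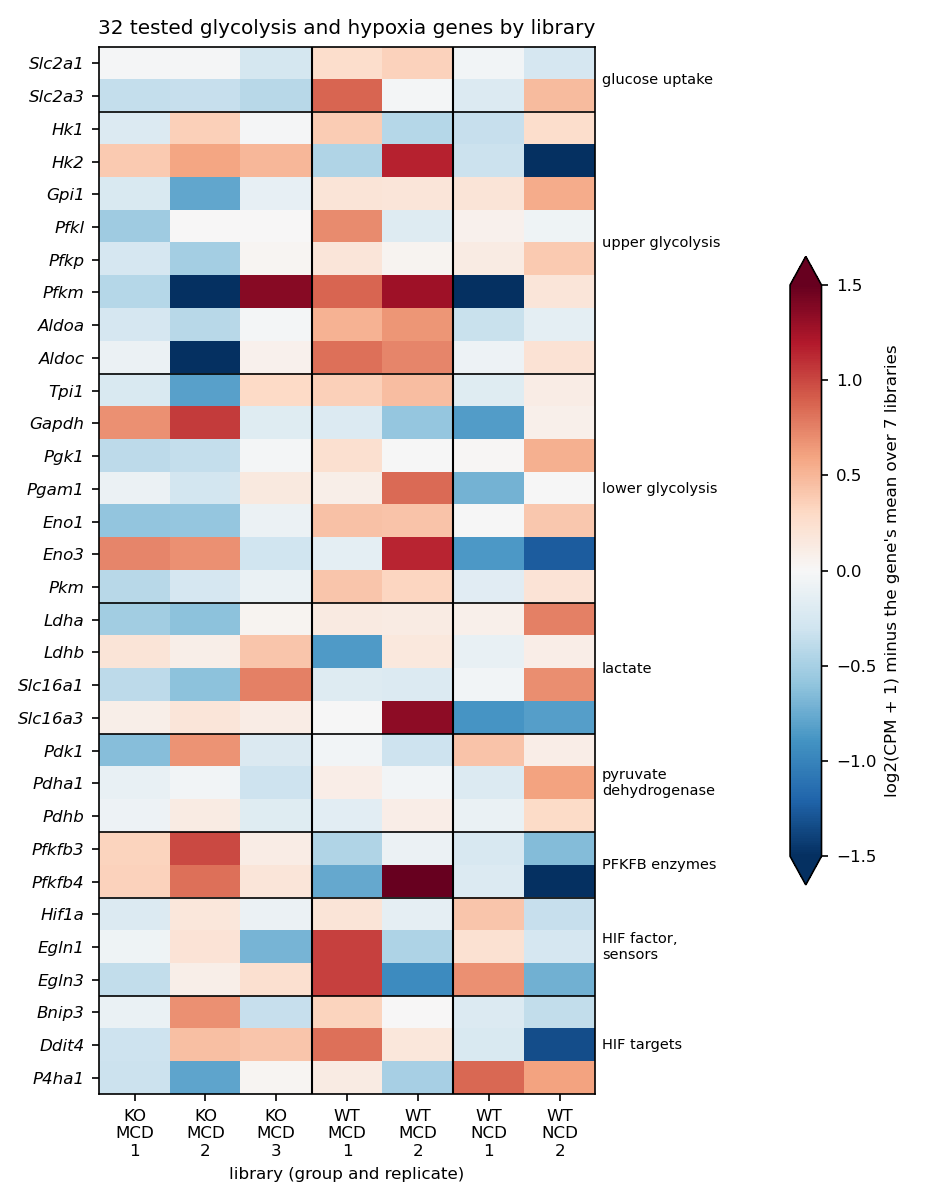
Each cell gives log2(CPM + 1) of a gene in a library minus the gene's mean over the 7 libraries, with red above and blue below that mean, and genes are ordered by role. Most glycolysis rows are darker red in the WT_MCD columns than in the KO_MCD columns, while Hk2, Eno3, Slc16a3 and Pfkfb4 are reddest in WT_MCD replicate 2.

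HIF-1 binds DNA at a short core, ACGTG or GCGTG. The 250 bases before an annotated RefSeq start of 5 members with contrasting patterns are shown so that the core can be seen in place (GRCm38.p6, 5′ to 3′ on the gene's own strand, capitals mark either core on either strand, and no base lies in an annotated exon). Ldha and Pgk1 are textbook HIF targets, P4ha1 is a member that was lower in every deficient diet library than in both control diet libraries, and Aldoa and Eno1 are the members that stood lowest in KO_MCD relative to their error. The windows are chr7:46845554-46845803 for Ldha (plus strand), chrX:106186850-106187099 for Pgk1 (plus), chr10:59323046-59323295 for P4ha1 (plus), chr7:126799255-126799504 for Aldoa (minus) and chr4:150236458-150236707 for Eno1 (plus). Ldha, Aldoa and Eno1 have several annotated starts, of which 1 is shown, and the windows of Ldha and Aldoa are intronic in longer transcripts.
Ldha: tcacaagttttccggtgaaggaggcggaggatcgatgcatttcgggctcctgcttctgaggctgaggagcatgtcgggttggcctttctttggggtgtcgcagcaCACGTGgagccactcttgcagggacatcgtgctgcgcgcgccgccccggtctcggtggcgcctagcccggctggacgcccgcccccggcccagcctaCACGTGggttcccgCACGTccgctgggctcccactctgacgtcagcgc
Pgk1: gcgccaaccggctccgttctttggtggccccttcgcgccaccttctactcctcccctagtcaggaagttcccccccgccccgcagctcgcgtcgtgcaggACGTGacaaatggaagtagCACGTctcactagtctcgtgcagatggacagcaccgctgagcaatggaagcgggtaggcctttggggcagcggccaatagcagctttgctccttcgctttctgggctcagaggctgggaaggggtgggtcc
P4ha1: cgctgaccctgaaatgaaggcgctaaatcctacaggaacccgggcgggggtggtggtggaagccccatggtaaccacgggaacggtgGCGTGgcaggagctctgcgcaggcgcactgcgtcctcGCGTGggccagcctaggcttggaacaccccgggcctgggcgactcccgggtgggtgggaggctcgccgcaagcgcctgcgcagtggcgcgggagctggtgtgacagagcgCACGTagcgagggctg
Aldoa: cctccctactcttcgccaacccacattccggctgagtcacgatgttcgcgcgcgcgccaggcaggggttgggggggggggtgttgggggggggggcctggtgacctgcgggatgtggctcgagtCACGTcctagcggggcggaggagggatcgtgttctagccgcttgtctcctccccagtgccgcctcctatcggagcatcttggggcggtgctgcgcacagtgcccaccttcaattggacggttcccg
Eno1: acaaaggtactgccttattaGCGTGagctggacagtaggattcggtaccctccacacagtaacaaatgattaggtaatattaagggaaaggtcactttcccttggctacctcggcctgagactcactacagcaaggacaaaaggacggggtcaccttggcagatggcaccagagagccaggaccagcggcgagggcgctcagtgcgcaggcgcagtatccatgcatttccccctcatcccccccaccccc
The Ldha window holds 5 matches, counting both strands of each CACGTG, and the windows of Pgk1, P4ha1, Aldoa and Eno1 hold 2, 3, 1 and 1. The counts depend on the start shown. The windows at other starts hold 1 match for Ldha, 1 and 0 for Aldoa and 2 and 2 for Eno1. RefSeq windows were found for 32 of the 33 members, and 30 of these 32 had a match in at least 1 window. Over the 46 windows of the members, 82.6% held either core, against 38.6% of all 32851 windows of the same length. The members' windows were also richer in CG pairs, with a median of 14 against 6 over all windows, and both cores contain a CG. These matches describe the letters of the windows and say nothing of binding in these cells.

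KO_MCD against WT_MCD asks how the sorted cells of CD73-deficient mice differ from wild type cells on the same diet. The 4 members with an unadjusted p under 0.05 were all lower in KO_MCD, 12.5% of the 32 tested, against 3.25% of all genes in either direction (3.14% of genes of at least 5 CPM) and 2.04% of all genes lower. Below 0 were 26 members (81.2%), against 51.9% of all genes, and the median log2 fold change of the members was -0.39, against -0.03 over all genes. Without TMM scaling 22 members were below 0, and without WT_MCD replicate 1 there were 19. The edgeR adjusted p was 1 for every member in this comparison. The KO_MCD libraries did not overlap the WT_MCD libraries for 13 members, 11 lower and 2 higher (40.6%, against 18% of all genes, 9.66% lower and 8.37% higher); without TMM scaling there were 7 lower and 3 higher.

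The glycolytic enzymes from hexokinase to pyruvate kinase (15 members) made up most of this count. Lower in KO_MCD were 13 of the 15, 12 without TMM scaling, and 8 of these were lower without overlap, 5 without TMM scaling. Their summed level was 3893, 4034 and 4902 CPM in KO_MCD, against 6704 and 6306 CPM in WT_MCD and, in WT_NCD, 4762 and 6115 CPM. All 3 KO_MCD sums were below both WT_MCD sums, and KO_MCD replicate 3 lay above the lower WT_NCD sum.

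Aldoa encodes the main aldolase, which splits fructose bisphosphate into the triose phosphates. Aldoa (ENSMUSG00000030695, chromosome 7, 126795234 to 126800751, GRCm38, minus strand) had 296, 266 and 347 CPM in KO_MCD, against 508 and 564 CPM in WT_MCD and, in WT_NCD, 280.0 and 321 CPM. WT_MCD stood above both other groups, which overlapped. The KO_MCD minus WT_MCD log2 fold change of Aldoa was -0.82 (SE 0.24). It was -0.93 to -0.73 with each library left out in turn.

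Eno1 encodes the enolase that makes phosphoenolpyruvate. Eno1 (ENSMUSG00000063524, chromosome 4, 150236721 to 150248879, plus strand) had 773, 776 and 1091 CPM in KO_MCD, against 1580.5 and 1563 CPM in WT_MCD and, in WT_NCD, 1154 and 1541 CPM. All KO_MCD libraries were below all 4 wild type libraries. Without TMM scaling they were still below both WT_MCD libraries, but KO_MCD replicate 3 lay above WT_NCD replicate 1. The Eno1 log2 fold change against WT_MCD was -0.84 (SE 0.27). Of the reads counted for Eno1 and its near-identical copies, 3.46% were counted on the copies.

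Pkm, which carries the last step to pyruvate, had 1422, 1590.2 and 1769.5 CPM in KO_MCD, against 2529 and 2375 CPM in WT_MCD and, in WT_NCD, 1693 and 2185 CPM. KO_MCD was below WT_MCD in every library and overlapped WT_NCD. The log2 fold change of Pkm against WT_MCD was -0.62 (SE 0.24). Gene counts do not separate the splice forms PKM1 and PKM2.

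The other non-overlapping enzymes were smaller or less precise, and Tpi1, Pfkp and Pgk1 overlapped without TMM scaling. Gpi1, the isomerase after hexokinase, had 255, 173 and 274 CPM in KO_MCD, against 341 and 339 CPM in WT_MCD. Tpi1, which interconverts the triose phosphates, had 134, 89.0 and 195 CPM in KO_MCD, against 203 and 217 CPM in WT_MCD. Pfkp, the platelet-type phosphofructokinase, Pgk1, the first ATP-yielding kinase, and Aldoc, the brain-type aldolase, completed the 8, with log2 fold changes of -0.35, -0.37 and -1.26. Pfkl, the liver-type phosphofructokinase, overlapped, because WT_MCD replicate 2 had 225 CPM against 177, 257 and 258 CPM in KO_MCD. Hk1, the constitutive hexokinase, differed by 0.03 (log2, SE 0.36).

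The inducible hexokinase gene Hk2 did not separate the genotypes, and its WT_MCD libraries lay on either side of KO_MCD. Hk2 had 14.5, 16.8 and 15.7 CPM in KO_MCD, against 7.67 and 25.4 CPM in WT_MCD and, in WT_NCD, 8.50 and 2.28 CPM. The log2 fold change was -0.07 (SE 0.77); its sign turned without TMM scaling and with limma voom.

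Both glucose transporter genes stood below WT_MCD in every KO_MCD library. Slc2a1 encodes GLUT1, the transporter that rises on T cell activation. Slc2a1 had 193, 194 and 163 CPM in KO_MCD, against 236 and 249 CPM in WT_MCD and, in WT_NCD, 190.5 and 164 CPM, and KO_MCD overlapped WT_NCD. The difference of Slc2a1 from WT_MCD was -0.40 on the log2 scale (SE 0.24). Slc2a3 encodes the high-affinity transporter GLUT3. Slc2a3 had 268, 269 and 256 CPM in KO_MCD, against 632 and 337 CPM in WT_MCD and, in WT_NCD, 298 and 478 CPM. The difference of Slc2a3 was -0.87 (log2, SE 0.34) and was -0.31 without WT_MCD replicate 1, the library with 632 CPM.

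Gapdh, the triose phosphate dehydrogenase gene often used as a reference, stood higher in KO_MCD, but its counts are not those of the whole gene. In the annotation 108 other genes share at least 97% identity with it over at least 100 bases. These copies held 89.5% of all counts of the family. Gapdh itself had 37.0, 47.8 and 19.9 CPM in KO_MCD, against 19.4 and 14.8 CPM in WT_MCD and, in WT_NCD, 12.2 and 23.9 CPM. The fitted Gapdh difference from WT_MCD was 1.03 on the log2 scale (SE 0.54). The share of family counts assigned to Gapdh was 15.6, 23.3 and 8.62% in KO_MCD, against 7.54 and 7.48% in WT_MCD and 7.01 and 6.56% in WT_NCD. Gapdh and its copies together had 237, 205 and 231 CPM in KO_MCD, against 258 and 197 CPM in WT_MCD and, in WT_NCD, 175 and 365 CPM. The summed values overlapped between all groups. With most counts of the family on its copies, the level of Gapdh alone is uncertain.

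**Figure D2:**
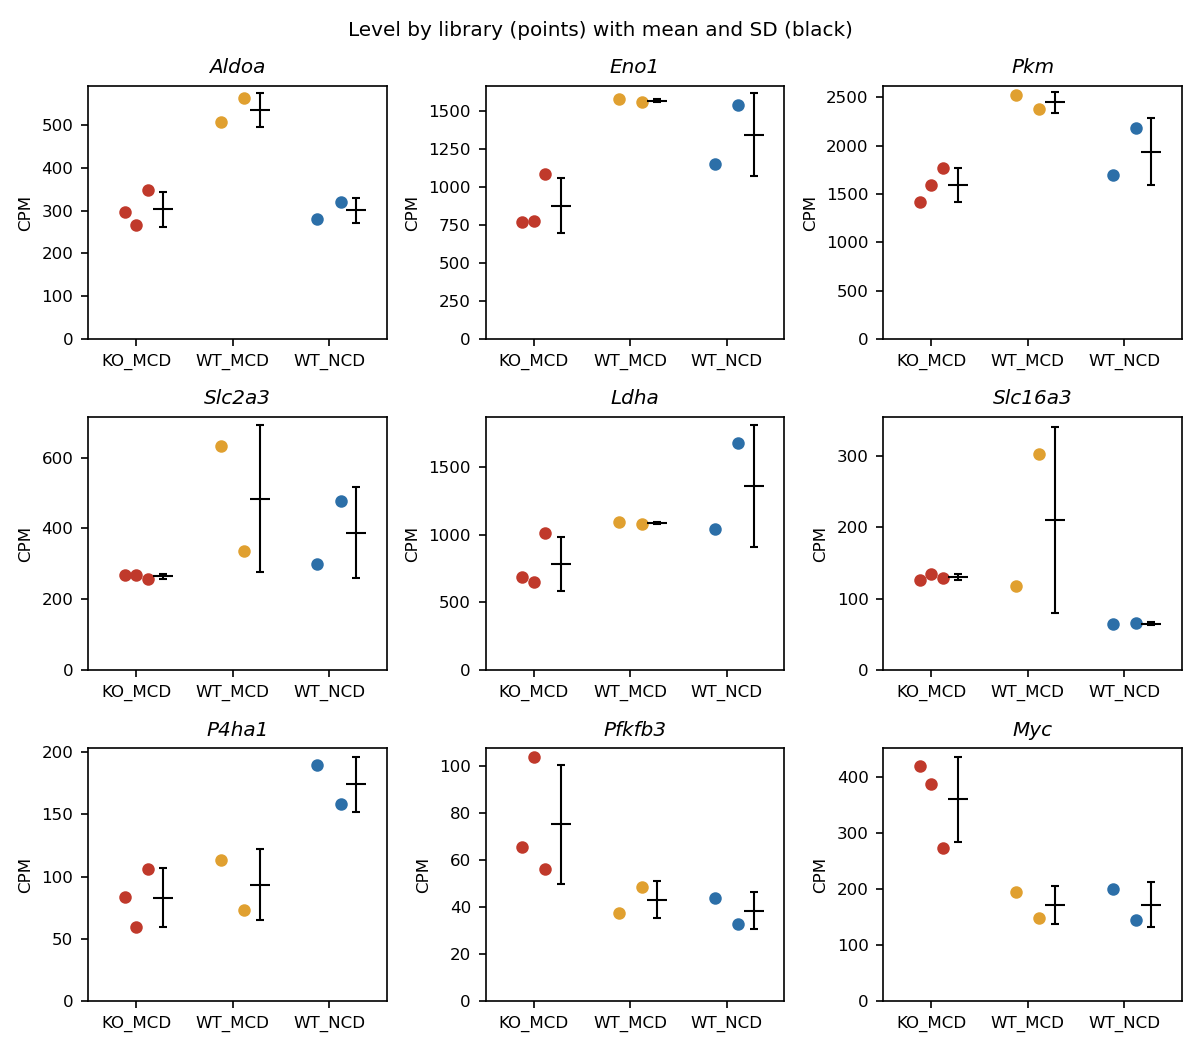
Points are CPM per library for 8 members and for Myc, with the group mean and SD in black, for KO_MCD (3 libraries), WT_MCD (2) and WT_NCD (2). Aldoa, Eno1 and Pkm have all KO_MCD points below both WT_MCD points, and P4ha1 has both WT_NCD points, 190.0 and 158 CPM, above all others.

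The lactate genes differed among themselves between the genotypes, with Ldha lower and Ldhb not separated. Ldha had 689.6, 648 and 1016 CPM in KO_MCD, against 1092 and 1081 CPM in WT_MCD and, in WT_NCD, 1040.1 and 1677 CPM, with every KO_MCD library below every wild type library. Without TMM scaling this separation was lost, with KO_MCD replicate 3 above WT_MCD replicate 2 and WT_NCD replicate 1. The Ldha log2 fold change against WT_MCD was -0.47 (SE 0.31). Ldhb, the heart-type subunit, had 62.1, 57.3 and 72.4 CPM in KO_MCD, against 29.4 and 60.3 CPM in WT_MCD and, in WT_NCD, 49.98 and 57.9 CPM. The groups overlapped, with a log2 fold change of 0.51 (SE 0.38).

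Slc16a1 encodes MCT1, which carries lactate in either direction. Slc16a1 had 46.2, 39.6 and 104 CPM in KO_MCD, against 53.1 and 52.6 CPM in WT_MCD and, in WT_NCD, 59.4 and 99.4 CPM. Its log2 fold change of 0.26 (SE 0.49) rested on KO_MCD replicate 3 and was -0.30 without it. Slc16a3 encodes MCT4, the exporter of highly glycolytic cells. Slc16a3 had 126, 134 and 129 CPM in KO_MCD, against 118 and 302 CPM in WT_MCD and, in WT_NCD, 63.9 and 66.3 CPM. The 3 KO_MCD libraries were tightly grouped between the WT_MCD libraries and above both WT_NCD libraries.

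The members for pyruvate dehydrogenase and its kinase showed little difference between the genotypes beside their errors. Pdha1 and Pdhb, the subunits of the pyruvate dehydrogenase E1 enzyme, had log2 fold changes of -0.19 and -0.01 (SE 0.31 and 0.26). Pdk1, the kinase that switches this enzyme off and a HIF target, had 41.1, 104 and 55.4 CPM in KO_MCD, against 62.8 and 52.0 CPM in WT_MCD and, in WT_NCD, 87.3 and 69.3 CPM. The Pdk1 difference was 0.22 on the log2 scale (SE 0.43), and KO_MCD replicate 2 was the 1 library above both WT_MCD libraries.

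Pfkfb3 and Pfkfb4 encode enzymes that set fructose 2,6-bisphosphate, the activator of phosphofructokinase. Pfkfb3 had 65.4, 104 and 56.2 CPM in KO_MCD, against 37.6 and 48.6 CPM in WT_MCD and, in WT_NCD, 43.9 and 32.7 CPM. All KO_MCD libraries exceeded all 4 wild type libraries, the reverse of the enzymes above. The log2 fold change of Pfkfb3 against WT_MCD was 0.80 (SE 0.39), and 0.50 without KO_MCD replicate 2. Pfkfb4 had 31.4, 44.2 and 28.01 CPM in KO_MCD, against 14.0 and 77.6 CPM in WT_MCD and, in WT_NCD, 21.1 and 5.37 CPM, and KO_MCD lay between the WT_MCD libraries.

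Beyond the glycolytic HIF targets such as Ldha and Pgk1, given above, the members for HIF-1, its sensors and the targets Bnip3, Ddit4 and P4ha1 overlapped between the genotypes. Hif1a, the gene of the oxygen-regulated subunit, had 671, 872 and 725 CPM in KO_MCD, against 884 and 704 CPM in WT_MCD and, in WT_NCD, 1028 and 608 CPM. Its log2 fold change was -0.07 (SE 0.30), and HIF-1α is regulated largely as a protein, which was not measured. Egln1, the main HIF prolyl hydroxylase, had 9.91 to 19.5 CPM in KO_MCD, against 35.1 and 11.9 CPM in WT_MCD and, in WT_NCD, 19.8 and 13.9 CPM. Egln3, a hydroxylase that is itself a HIF target, had 3.06, 4.58 and 5.19 CPM in KO_MCD, against 9.72 and 1.73 CPM in WT_MCD and, in WT_NCD, 7.44 and 2.19 CPM, with a log2 fold change of -0.42 (SE 1.09). Bnip3, a mitophagy receptor, Ddit4, an inhibitor of mTOR complex 1, and P4ha1, a collagen prolyl hydroxylase subunit, had log2 fold changes of -0.02, -0.31 and -0.17, with SE of 0.42, 0.48 and 0.35.

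**Figure D3:**
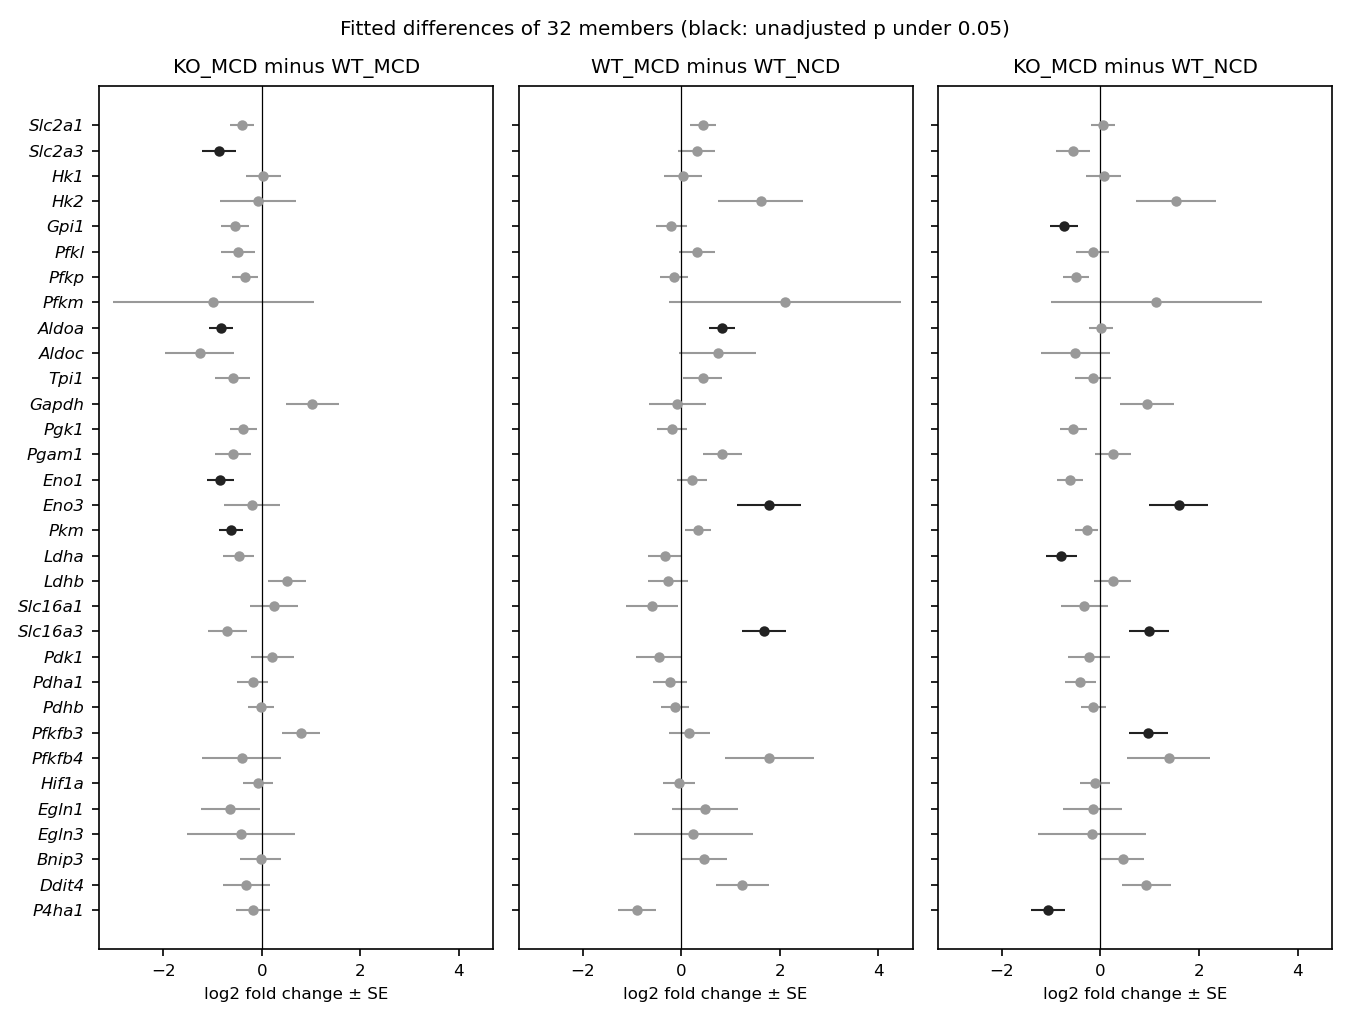
Points are fitted log2 fold changes with SE bars for the 32 tested members in each comparison, and black points have an unadjusted p under 0.05. In KO_MCD minus WT_MCD 26 points lie left of 0, and the black points are Slc2a3, Aldoa, Eno1 and Pkm.

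WT_MCD against WT_NCD asks what the deficient diet does in wild type cells. It shares the WT_MCD libraries with the genotype comparison, so a library that is high or low there moves both in opposite directions. Higher in WT_MCD were 20 of the 32 members (log2 fold change above 0 for 52.3% of all genes) and lower were 12, with a median of 0.28, against 0.04 over all genes. With single libraries left out, 8 to 16 members were lower. The 3 members with an unadjusted p under 0.05 were all higher, 9.38% of the 32, against 6% of all genes in either direction (6.86% of genes of at least 5 CPM) and 3.96% of all genes higher. The groups did not overlap for 16 members, 12 higher and 4 lower (50%, against 31.6% of all genes, 16.8% higher and 14.8% lower, and 33.6% of genes of at least 5 CPM). Of the 15 glycolytic enzymes 11 were higher, also under the other scalings. The groups did not overlap for 9 of the 15, 8 higher and 1 lower (7 and 0 without TMM scaling).

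Slc16a3 stood out most relative to its error. Its values, given above, were higher in both WT_MCD libraries, and the log2 fold change, 1.69 (SE 0.44), had an edgeR adjusted p of 0.704. DESeq2 called it (adjusted p = 0.0305), the sole member that any tool called. Leaving out WT_MCD replicate 2 gave 0.86, and leaving out replicate 1 of that group gave 2.20. Eno3, the muscle-type enolase, had 32.2, 30.9 and 15.2 CPM in KO_MCD, 17.0 and 42.9 CPM in WT_MCD and, in WT_NCD, 10.02 and 7.39 CPM. Relative to WT_NCD, the log2 fold change in WT_MCD was 1.78 (SE 0.64; edgeR adjusted p, 0.787), and 0.97 without WT_MCD replicate 2. Aldoa, with log2 fold change 0.83 (SE 0.27, edgeR adjusted p = 0.773), depended less on 1 library and was 0.74 to 0.94 with each left out.

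Among the HIF targets, Ddit4 and P4ha1 differed in opposite directions with the diet. Ddit4 had 27.8, 47.7 and 46.7 CPM in KO_MCD, 62.0 and 39.2 CPM in WT_MCD and, in WT_NCD, 29.5 and 13.2 CPM. The Ddit4 difference from WT_NCD was 1.24 on the log2 scale (SE 0.54, edgeR adjusted p = 0.808). P4ha1 had 83.4, 59.6 and 106 CPM in KO_MCD, 114 and 73.6 CPM in WT_MCD and, in WT_NCD, 190.0 and 158 CPM. For P4ha1 the difference was -0.90 (SE 0.38, edgeR adjusted p = 0.808), and every library on the deficient diet was below both control diet libraries.

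The remaining members were less distinct. Pgam1, the phosphoglycerate mutase, had a log2 fold change of 0.84 (SE 0.40), Pfkfb4 of 1.79 (SE 0.91) and Hk2 of 1.62 (SE 0.86, edgeR adjusted p = 0.812). Slc2a1 was 0.45 higher (SE 0.27, edgeR adjusted p = 0.822) and Pkm 0.34 higher (SE 0.26, edgeR adjusted p = 0.879), both with groups that did not overlap. Slc16a1 and Pdk1 were lower in both WT_MCD libraries, by log2 fold changes of -0.59 (SE 0.53, edgeR adjusted p = 0.926) and -0.45 (SE 0.47, edgeR adjusted p = 0.969). Ldha differed by -0.32 (SE 0.35, edgeR adjusted p = 0.972). Gapdh, Hif1a and Egln3 differed by -0.08, -0.04 and 0.25 (SE 0.58, 0.33 and 1.20), with an edgeR adjusted p of 1 for each.

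KO_MCD against WT_NCD sets both the genotype and the diet against the common baseline and shares libraries with each comparison above. Higher were 14 members and lower 18 (52.8% of all genes were above 0 and 46.9% below), with a median of -0.15, against 0.06 over all genes. An unadjusted p under 0.05 was found for 6 members, 3 in each direction (18.8%, against 8.97% of all genes, 4.72% higher and 4.25% lower, and 10.1% of genes of at least 5 CPM). The groups did not overlap for 12 members, 5 higher and 7 lower (37.5%, against 26.1% of all genes, 13.4% higher and 12.8% lower, and 30.3% of genes of at least 5 CPM). Without TMM scaling 7 did not overlap on the higher side and 3 on the lower. Of the 15 glycolytic enzymes 7 were higher and 8 lower.

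P4ha1 had the smallest p of the members, with a log2 fold change of -1.07 (SE 0.34, edgeR adjusted p = 0.465). Gpi1, with 342 and 440.0 CPM in WT_NCD, differed by -0.74 (SE 0.29, edgeR adjusted p = 0.536). Ldha differed by -0.79 (SE 0.31, edgeR adjusted p = 0.541), and by -0.40 without WT_NCD replicate 2, and Eno1 by -0.62 (SE 0.27, edgeR adjusted p = 0.561). The summed level of 6 markers of proliferating cells was also lower, at 605, 542 and 687 CPM in KO_MCD and 827 and 707 CPM in WT_MCD, against 1998 and 2468 CPM in WT_NCD. Its part in these differences was not tested.

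On the higher side, Eno3 differed by 1.58 (SE 0.60, edgeR adjusted p = 0.531), Pfkfb3 by 0.97 (SE 0.39, edgeR adjusted p = 0.542) and Slc16a3 by 0.99 (SE 0.41, edgeR adjusted p = 0.545). Hk2 was 1.54 higher (SE 0.81, edgeR adjusted p = 0.599), with all KO_MCD libraries above both WT_NCD libraries. Aldoa and Slc2a1, by contrast, differed from WT_NCD by 0.01 and 0.05 (SE 0.24 for both), and Gapdh by 0.95 (SE 0.54, edgeR adjusted p = 0.625). Pkm, Pdk1, Egln3 and Hif1a differed by -0.28, -0.23, -0.17 and -0.11 (SE 0.24, 0.43, 1.09 and 0.30), with edgeR adjusted p of 0.788, 0.958, 0.995 and 0.977.

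The macrophage marker sum differed between libraries of the same group, and a few members were high or low in the same libraries. Hk2, Pfkfb4, Slc16a3 and Eno3 were each highest in WT_MCD replicate 2, where the sum was 32876 CPM. They were among 8 members highest there, with Slc2a1, Aldoa, Tpi1 and Pgam1. In WT_MCD replicate 1, where the sum was 2416 CPM, 9 members were highest. Hk2, Pfkfb4 and Eno3 were among 7 members lowest in WT_NCD replicate 2, where the sum was 1179 CPM. In WT_NCD, Slc16a3 had 63.9 CPM at a sum of 10792 CPM and 66.3 CPM at 1179 CPM. At 2416 CPM of the macrophage sum, WT_MCD replicate 1 had 118 CPM of Slc16a3, above both WT_NCD libraries. Aldoa, with 508 and 564 CPM in these WT_MCD libraries of opposite macrophage level, and Eno1, with 1580.5 and 1563 CPM, were above both WT_NCD libraries in both. Without TMM scaling, Eno1 in WT_MCD replicate 2 lay below WT_NCD replicate 2. The part of macrophage RNA was not tested for any member.

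**Figure D4:**
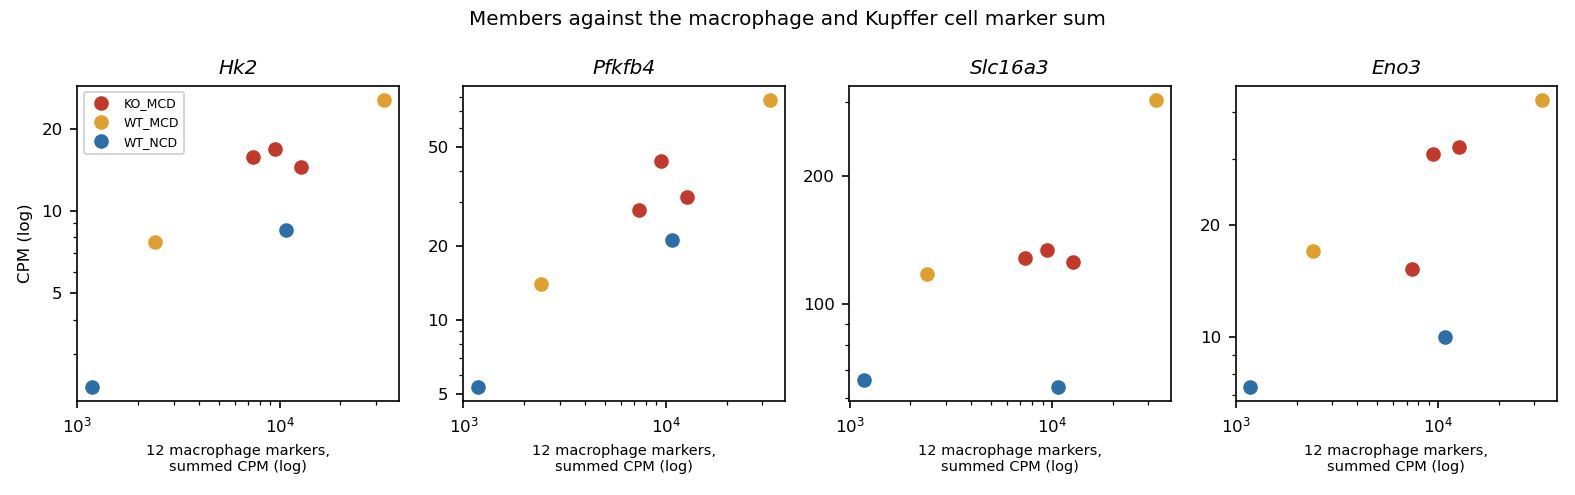
Each point is a library, with the summed CPM of 12 macrophage and Kupffer cell markers on the horizontal and the CPM of Hk2, Pfkfb4, Slc16a3 or Eno3 on the vertical axis, both logarithmic. WT_MCD replicate 2, at 32876 CPM, is the highest point in all 4 panels.

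Paired isoenzymes were compared as shares of their summed per-length RNA level, with no test, and protein was not measured. Ldha made up 84.0, 84.3 and 86.9% of the Ldha and Ldhb sum in KO_MCD, against 94.6 and 89.5% in WT_MCD and 90.8 and 93.2% in WT_NCD. In this pair the 3 KO_MCD libraries lay below all 4 wild type libraries. Slc2a3 made up 40.1 to 43.3% of the Slc2a1 and Slc2a3 sum in KO_MCD, against 56.4 and 39.6% in WT_MCD and 43.1 and 58.5% in WT_NCD. Slc16a3 took 69.4, 73.8 and 50.7% of the Slc16a1 and Slc16a3 sum in KO_MCD, against 64.9 and 82.7% in WT_MCD and 47.2 and 35.7% in WT_NCD. Both deficient diet groups were above the control diet. Hk2 stayed a minor part beside Hk1, at 8.04 to 10.03% in KO_MCD, 3.78 and 18.5% in WT_MCD and 6.73 and 1.24% in WT_NCD. Aldoc held at most 3.48% of the aldolase level in any library and Eno3 at most 11.4% of the enolase level, reached in KO_MCD replicate 1. Pfkp held 28.6 to 44.1% of the phosphofructokinases, Egln3 16.5 to 41.4% of the hydroxylase pair and Pfkfb4 20.3 to 71.2% of its pair, without separating the groups.

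**Figure D5:**
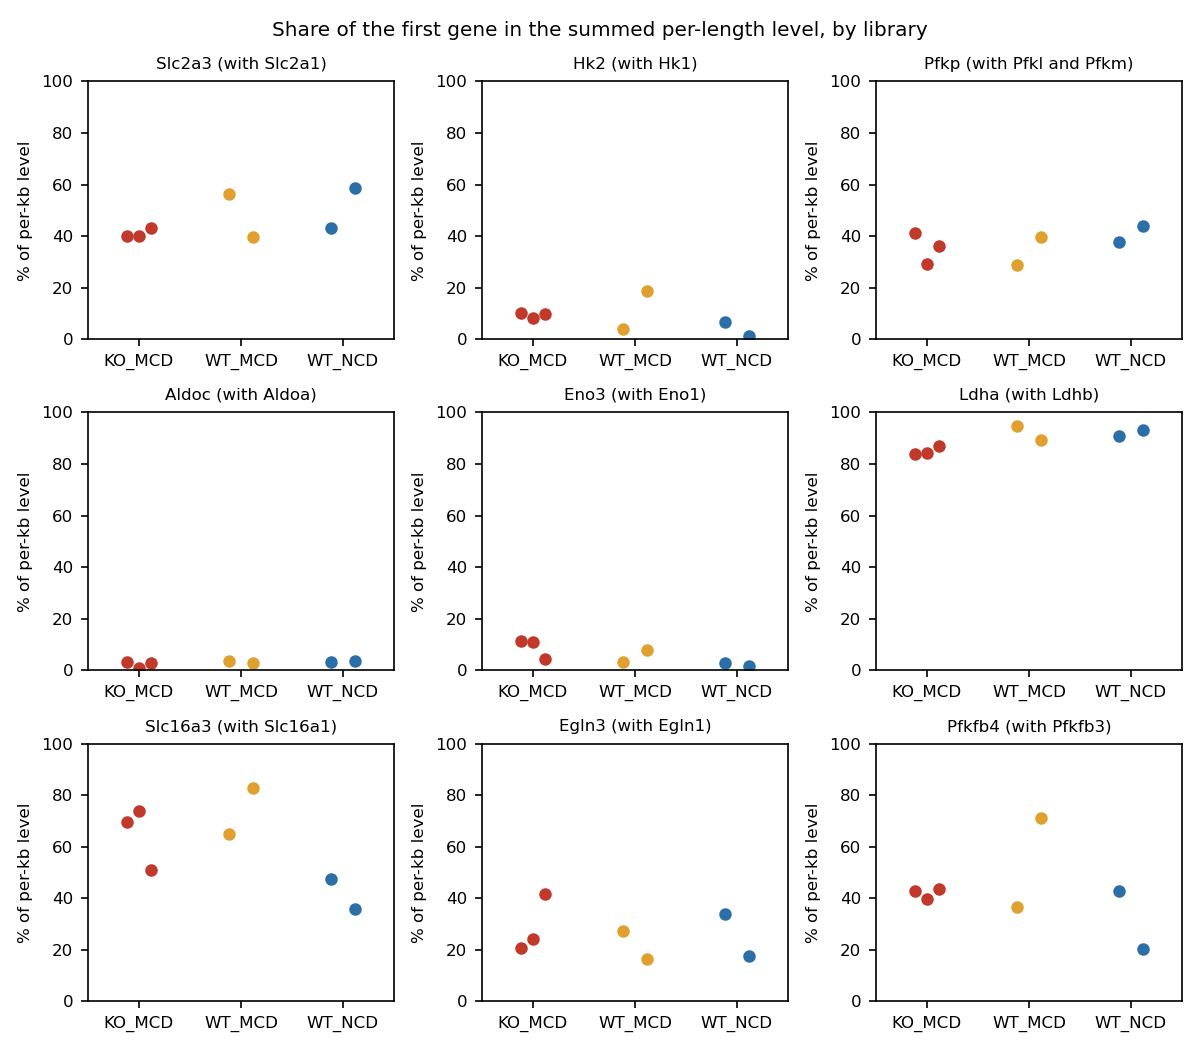
Points give, per library, the percentage of the first gene in the summed per-kilobase level of the isoenzyme pair or trio named above each panel. For Ldha the KO_MCD points are at 84.0 to 86.9%, below the wild type points at 89.5 to 94.6%.

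Other genes of the same pathways were read from a list of 101 symbols, of which 100 were found and 85 tested. In KO_MCD against WT_MCD 37 of them stood higher and 48 lower, with a median log2 fold change of -0.11; 2 higher and 4 lower had an unadjusted p under 0.05 (7.06% of 85, against 3.25% of all genes). Of the pentose phosphate genes 7 of 8 stood lower (51.9% of all genes), with 0 at an unadjusted p under 0.05. The groups overlapped for all 8. G6pdx, H6pd, Pgls, Pgd, Tkt and Taldo1 were higher in WT_MCD replicate 2, which had the highest macrophage sum, than in replicate 1. Rpe and Rpia were lower there. Taldo1 had 584 and 1782 CPM in WT_MCD, against 855, 778 and 748 CPM in KO_MCD. The other HIF targets were split, with 13 higher and 12 lower of 25. Among the upstream regulators, Myc, the transcription factor that drives glycolytic genes in activated T cells, had 419, 387 and 273 CPM in KO_MCD, against 195 and 148 CPM in WT_MCD and, in WT_NCD, 200.4 and 144 CPM. All KO_MCD libraries were above all wild type libraries, opposite to most of the enzymes. The Myc log2 fold change was 1.07 against WT_MCD (SE 0.32) and 1.06 against WT_NCD (SE 0.32, edgeR adjusted p = 0.434). Rictor, the defining subunit of mTOR complex 2, was 0.94 higher than in WT_MCD (SE 0.35).

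Ndrg1, a hypoxia-induced gene linked to T cell anergy, stood lower in KO_MCD as most of the enzymes did. Ndrg1 had 11.8, 14.1 and 18.1 CPM in KO_MCD, against 27.2 and 29.0 CPM in WT_MCD and, in WT_NCD, 31.8 and 39.6 CPM. Its log2 fold change was -0.94 against WT_MCD (SE 0.39) and -1.28 against WT_NCD (SE 0.39, edgeR adjusted p = 0.449). The KO_MCD minus WT_MCD tally also held Eno2, Fbp1 and Pck1, genes of neuronal enolase and of gluconeogenesis that averaged under 5 CPM and were at 0 in all 3 KO_MCD libraries.

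In WT_MCD against WT_NCD 49 of the 85 genes were higher and 36 lower, and the 4 with an unadjusted p under 0.05 were all higher (4.71%, against 6% of all genes). Pgm1, a phosphoglucomutase gene, had 95.5 and 89.8 CPM in WT_MCD, against 40.0 and 52.0 CPM in WT_NCD (log2 fold change 1.01, SE 0.42). Slc2a6, a glucose transporter gene, had 4.18 and 86.0 CPM in WT_MCD, against 7.49 and 3.35 CPM in WT_NCD, so its log2 fold change of 3.06 (SE 1.20) rested on the library with the highest macrophage sum. In KO_MCD against WT_NCD 50 were higher and 34 lower, and 9 higher and 5 lower had an unadjusted p under 0.05 (16.5% of 85, against 8.97% of all genes). Of the HIF targets, Bhlhe40, a transcription factor gene, had 983, 1095 and 883 CPM in KO_MCD, against 456 and 76.8 CPM in WT_NCD, and a log2 fold change of 1.89 (SE 0.77, edgeR adjusted p = 0.544). In WT_MCD it had 1221 and 417 CPM, on either side of the KO_MCD libraries. Gbe1, the glycogen branching enzyme, and Ero1l, an oxidase of protein folding, stood 1.51 (SE 0.52) and 0.78 (SE 0.28) higher in KO_MCD than in WT_NCD (log2). Both WT_MCD libraries were also above both WT_NCD libraries, with 26.6 and 30.4 CPM of Gbe1 and 155 and 119 CPM of Ero1l. Mxi1, another HIF target and an antagonist of Myc, stood 1.78 (SE 0.72) higher in KO_MCD than in WT_NCD, with 42.8 and 9.77 CPM in WT_MCD. Rptor, the defining subunit of mTOR complex 1, stood 1.49 (SE 0.49) higher in KO_MCD than in WT_NCD. Epas1, the gene of HIF-2α, had 2.72, 7.61 and 14.1 CPM in KO_MCD and 8.65 and 8.03 CPM in WT_MCD, against 0 and 0.730 CPM in WT_NCD. Prkaa1, a catalytic subunit of the energy sensor AMPK, was lower by log2 -0.77 (SE 0.31). None of the 85 passed the adjusted threshold.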

How the data were processed

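RNA of CD4+CD25+ liver cells was measured in 7 libraries of 3 groups, assigned from the labels. The authors deposited raw read counts per Ensembl gene, 1 column per library. The submitters' processing notes name the aligner HISAT2 2.1.0 and the genome build GRCm38. The counting tool, its annotation and strand setting, and the library kit were not given in the sources used here. Without a stated strand setting, reads of genes whose exons overlap on opposite strands, such as Aldoa and Fam57b, cannot be told apart. Symbols, coordinates and exon lengths came from GENCODE of GRCm38 (53360 of 53465 IDs matched), and promoter sequences from RefSeq, GRCm38.p6. Aldoa is listed under 2 IDs, of which the one with more counts was used.

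Differences were fitted in R 4.3.3 by the quasi-likelihood test of edgeR 4.0.16 (glmQLFit, glmQLFTest) over all 7 libraries, with a coefficient for each group, TMM scaling and a minimum count of 10 in filterByExpr, and with Benjamini-Hochberg adjustment over 14784 genes. Libraries of a group varied by 91.3% (coefficient of variation from edgeR's common dispersion). All pairs of libraries in a group differed by more than counting noise (chi-square of 88.7 to 320 for each degree of freedom). The fit was also run on simulated data with larger fold changes than most of those given here, which does not test differences of this size. Alternatives were other scalings and filters, DESeq2 1.42.0, limma 3.58.1 voom, the replicate number as a block, 2 groups alone and each library left out. Copies of members were found with BLAST+ 2.17.0.

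Fold changes with p were printed for 8 fixed members (Hif1a, Slc2a1, Hk2, Gapdh, Pkm, Ldha, Pdk1 and Egln3), for the 4 members of smallest p in each direction whose mean reached 5 CPM, and for other pathway genes of that level with p under 0.05. Of those pathway genes 1 is not reported here. Further members were named after their values were seen. The members and lists were chosen with earlier results of these data known.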

Additional observations from a re-analysis of the deposited data

How the results depend on the processing

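No member passed the adjusted threshold with edgeR or limma voom under any setting tried; DESeq2 called 1, Slc16a3 in WT_MCD against WT_NCD. Over all genes DESeq2 called 50, 314 and 562 genes in KO_MCD against WT_MCD, WT_MCD against WT_NCD and KO_MCD against WT_NCD, and edgeR with every counted gene kept called 1, 54 and 140, against 0 in each comparison as reported. Without TMM scaling the median of all genes moved by 0.10 in KO_MCD against WT_MCD and by 0.11 in KO_MCD against WT_NCD (log2), and the members' median was -0.26 in KO_MCD against WT_MCD, with all genes at 0.07. With single libraries left out, the members' median was -0.41 to -0.21 in KO_MCD against WT_MCD, 0.15 to 0.39 in WT_MCD against WT_NCD and -0.15 to 0.064 in KO_MCD against WT_NCD. Groups of 2 and 3 libraries limit every comparison, and for the low genes Egln3, Pfkm and Vegfa depth does too.

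Signs turned for small or unstable differences, and the cause was not tested. In KO_MCD against WT_MCD, Hif1a was 0.023 and Hk2 0.088 without TMM scaling, and Hk2 was 0.21 with voom. With voom, Hif1a was 0.0058 in WT_MCD against WT_NCD and Egln3 was 0.11 in KO_MCD against WT_NCD. With libraries left out in KO_MCD against WT_MCD, the ranges that crossed 0 were -1.18 to 1.34 (Egln3), -0.23 to 0.14 (Hif1a), -0.66 to 1.03 (Hk2), -0.25 to 0.47 (Pdk1) and -0.30 to 0.51 (Slc16a1). In WT_MCD against WT_NCD they were -1.49 to 1.38 (Egln3), -0.48 to 0.49 (Gapdh), -0.37 to 0.38 (Hif1a) and -0.63 to 0.070 (Ldha). In KO_MCD against WT_NCD they were -0.79 to 0.96 (Egln3), -0.44 to 0.31 (Hif1a), -0.70 to 0.023 (Pdk1) and -0.048 to 0.16 (Slc2a1).

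Same-numbered libraries did not deviate together (correlations of -0.10 to 0.03). In a group of 2 libraries the deviations from the mean mirror each other, so these correlations cannot exclude a pairing. With the replicate number as a block, 0 genes were called in each comparison and the members' medians were -0.33, 0.27 and -0.08 in the order above. The block turned Egln3 to 0.014 and Slc16a1 to -0.30 in KO_MCD against WT_MCD, and Egln3 to 0.14 in KO_MCD against WT_NCD. A crossed pairing of WT_MCD and WT_NCD, added after seeing the data, called 0 genes.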
